A study of Homo sapiens with 12 samples.

Results

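The clustered protocadherins are a family of cell adhesion proteins encoded in a row on the long arm of chromosome 5 (5q31). The members described here were the protein-coding genes of GENCODE 44 on chromosome 5 whose symbols begin with PCDHA, PCDHB or PCDHG followed by a number or by a letter and a number. This rule took 53 of 19970 protein-coding genes on chromosomes 1 to 22 and X: 15 alpha genes, 16 beta genes and 22 gamma genes. The rule used name and position only and no measurement, but it was chosen with earlier results of these data known. They fill 727 kb (hg38, chromosome 5, 140786136 to 141512977), all on the plus strand, and the 100 kb on either side were examined with them.

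Clustered protocadherins sit on the cell surface, bind copies of themselves on neighbouring cells and are best known from neurons, where each cell expresses its own combination of them. Each alpha and gamma gene has its own large first exon, with its own promoter, which is spliced to a short set of constant exons shared by the whole subcluster, whereas most beta genes consist of a single exon. Promoter choice is known to depend on CTCF and cohesin, which loop promoters to enhancers inside and behind the clusters, and on DNA methylation. The genes named PCDHAC and PCDHGC, the C-type genes, differ from the others in that neurons express them more uniformly.

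The data came from CUT&RUN, in which an antibody guides a nuclease that cuts out the DNA next to its target, in RT112. This line comes from a human transitional cell carcinoma of the bladder, is described as ARID1A wild type and was left untreated. ARID1A, a subunit of the SWI/SNF chromatin remodeling complex, was profiled with 2 antibodies, from Abcam and from Cell Signaling Technology (CST), beside H3K4me3, a histone mark of active promoters, and IgG as control, with 3 replicates in each of the 4 groups; the sources do not say if they were grown separately. The authors' lists of called regions hold positions only, 1 list per antibody merged over the replicates, with 37501 Abcam, 32932 CST and 9765 H3K4me3 regions on these chromosomes. No value per replicate, error or depth can therefore be given, and no test was made. All 53 members were counted, so that shares over them carry no sampling interval, and each is set beside the same share over all protein-coding genes. Presence in a fraction of the cells and weak signal in all of them cannot be told apart. IgG regions were not analysed here. Among 23 cadherin genes, CDH1 (E-cadherin) and CDH3 (P-cadherin), both of epithelium, had regions of all 3 lists at the promoter. CDH5, the cadherin of vessel walls, had none. These few genes cannot verify the label of the line, since other epithelial lines could show the same regions. Cadherins known from other tissues were not all without regions: CDH2 (N-cadherin) had an H3K4me3 region of 3300 bp, and CDH15 (muscle cadherin) had an Abcam region of 1629 bp and a CST region of 1224 bp.

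Many promoters of the subclusters share a short element around the letters CGCT, known as the conserved sequence element. Examples are shown because the called regions of the locus can be read against them. The lines below give 30 bases of promoter on the plus strand from RefSeq (GRCh38.p14), with a word shared by many promoters of the subcluster in capitals.
PCDHA1: tggccacatgaTGTCGCTgtacaccacaaa
PCDHA6: gagccgcatgaTGTCGCTgtctaccatgaa
PCDHA12: cagtcacatgaTGTCGCTctacactcagaa
PCDHB2: gagacgcggggTGGCGCTgcagccttagaa
PCDHB16: agaacgcgtggTGGCGCTgcaggttaagat
PCDHB15: acaacgcatggTGGCGCTgcaggctaaggc
PCDHGA9: gactctgagcgCCGCTGTtgatcaactcta
PCDHGA10: gactctgagcgCCGCTGTtcacctactagg
PCDHGC3: gactctgtgtgCCGCTGTcggccaatgaag
The capitals begin 41 bases before the RefSeq start at PCDHA1 and 71 bases before it at PCDHGC3.

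RefSeq promoters, from 250 bases before to 50 after the start, were at hand for 47 of the 53 members. PCDHA3, PCDHA13, PCDHB6, PCDHB11, PCDHGA12 and PCDHGC5 were not in that table. CGCT, on either strand, was present in 46 of the 47, all but PCDHA9, against 71.9% of the 27305 genes in the table. A match to these few letters does not show that the conserved element is present, so the count is not a count of elements. On the strand of the gene, TGTCGCT was present in 10 of 13 alpha promoters and in 1.18% of all genes, and the 3 without it were PCDHA9 and the C-type genes PCDHAC1 and PCDHAC2. TGGCGCT was present in 13 of 14 beta promoters, all but PCDHB1, and in 2.68% of all genes. CCGCTGT was present in 11 of 20 gamma promoters and in 2.48% of all genes. These 3 longer words, which overlap CGCT, were picked from the same promoters that were then counted, so their counts only describe the sequences. The core word of CTCF sites was found at PCDHB9 alone among the 47 (12.7% of all genes), and the word of REST, a repressor of neuronal genes, at none (0.0659% of all genes), both searched on either strand. Sites that depart from these fixed words were not searched, so the counts do not show how many promoters CTCF or REST can bind.

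A single member, PCDHGC3, had a called region of any list within 1 kb of the transcription start site (TSS) of its first exon, and the other 52 had none. PCDHGC3 is a C-type gene near the end of the gamma subcluster (TSS at 141475966). Its promoter carried an H3K4me3 region of 1951 bp (141475423 to 141477373) and within it an Abcam region of 1208 bp (141475642 to 141476849). No CST region was called there, and the nearest one lay 38 kb downstream. Among all protein-coding genes, 57.5% had a region of at least 1 list at the promoter, 43.4% an Abcam region, 38.4% a CST region and 51.3% an H3K4me3 region. Among the members these counts were 1 of 53 (1.89%) for Abcam, 0 of 53 for CST and 1 of 53 for H3K4me3. Regions of both ARID1A antibodies were found at 34.9% of all genes and at no member.

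**Figure D1:**
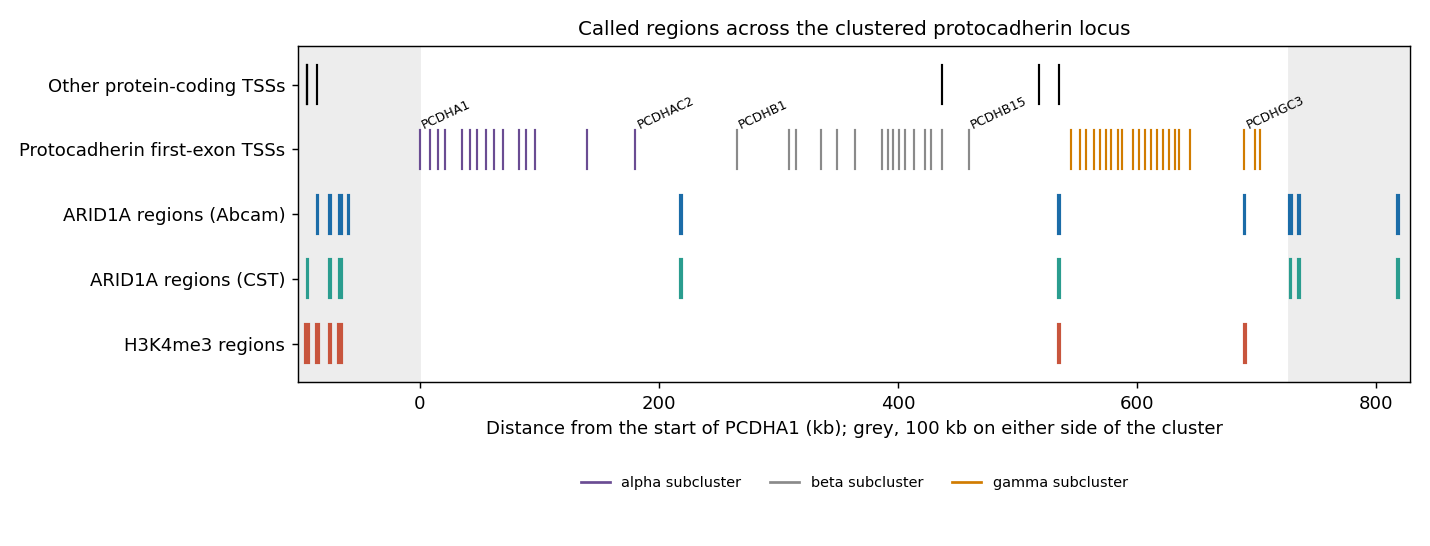
Called regions along the locus, by distance from the start of PCDHA1 in kb, in 3 rows (Abcam, CST, H3K4me3), under ticks for the first-exon TSSs of the 53 members (colored by subcluster) and of other protein-coding genes; the grey bands mark 100 kb on either side. Inside the cluster the lists hold 3 Abcam, 2 CST and 2 H3K4me3 regions, and the alpha and beta TSSs lie in stretches with none.

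At PCDHGC3 the Abcam region ran from 324 bp before to 883 bp after the TSS and the H3K4me3 region from 543 bp before to 1407 bp after it, so that both covered the promoter element shown above and part of the first exon of 2581 bp. Both were narrow for their lists: 30.6% of Abcam regions and 6.53% of H3K4me3 regions were narrower. An H3K4me3 region and an Abcam region without CST occurred together at 6.81% of all protein-coding genes. Of the 7609 genes with H3K4me3 and Abcam at the promoter, 82.1% had CST as well. The promoter up to the most upstream annotated start (chr5:141475716-141475946, plus strand, GRCh38.p14, RefSeq) is shown because it is the one member promoter with called regions. Its 6 matches to the letters CGCT on either strand, of which 2 adjoin without sharing a base, are in capitals.
PCDHGC3 promoter: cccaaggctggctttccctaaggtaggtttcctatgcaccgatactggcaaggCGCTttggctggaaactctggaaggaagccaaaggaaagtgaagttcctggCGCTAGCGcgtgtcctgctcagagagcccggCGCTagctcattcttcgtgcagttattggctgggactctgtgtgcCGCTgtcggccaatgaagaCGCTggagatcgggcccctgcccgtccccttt
Its neighbours on the downstream side, the C-type genes PCDHGC4 and PCDHGC5, had no region at the promoter or over the first exon. Their TSSs lay 8.18 and 12.2 kb from the Abcam region of PCDHGC3 and 7.66 and 11.7 kb from its H3K4me3 region.

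**Figure D2:**
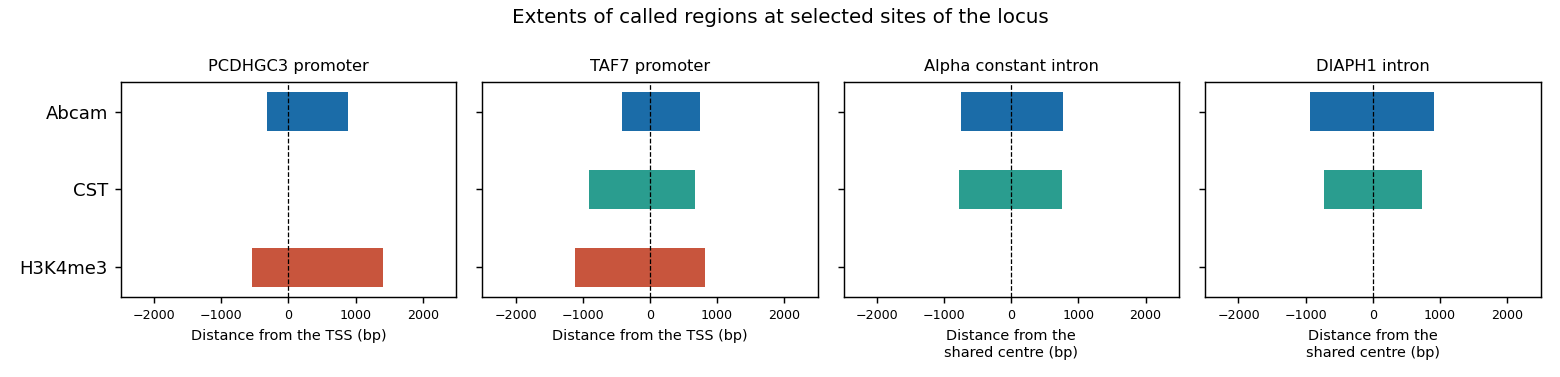
Extents of called regions in bp along chromosome 5, from the TSS (PCDHGC3, and TAF7, which is on the minus strand) or from the centre of the part that both ARID1A antibodies share (alpha constant intron, DIAPH1 intron), with 1 bar per region. PCDHGC3 has Abcam and H3K4me3 without CST, TAF7 has all 3, and the intron sites have both ARID1A antibodies without H3K4me3.

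The alpha subcluster held 15 TSSs, and none had a region at the promoter or over the first exon. The nearest Abcam regions were 37.2 to 135 kb away (median 101 kb), with PCDHAC2 the closest and PCDHA11 the farthest. For the genes from PCDHA1 to PCDHA10 the nearest Abcam region lay upstream of the subcluster, and for those from PCDHA11 to PCDHAC2 it lay in the constant part of the alpha genes. H3K4me3 was nearest at PCDHA1 (65.0 kb) and farthest at PCDHAC2 (245 kb).

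The alpha constant part held the one place inside the cluster where ARID1A was called away from every promoter. An Abcam region of 1520 bp (141003692 to 141005211) and a CST region of 1525 bp (141003668 to 141005192) covered each other almost fully, with 1501 bp in common and midpoints 22 bp apart. They lay in the intron between the second constant exon (140982475 to 140982563) and the last one (141009627 to 141012347), which all 15 alpha genes share. The nearest first-exon TSS was that of PCDHAC2, 37.2 kb upstream, and no H3K4me3 region overlapped. Their width was close to the middle of their lists, with 52.2% of Abcam and 55.6% of CST regions narrower. The CpG ratio, the number of CG pairs over that expected from the base content, was 0.11 for each, against 0.80 for the Abcam region of PCDHGC3. The central 200 bases of the shared part (chr5:141004342-141004541, plus strand, hg38) are shown because they hold 1 match to TGANTCA, the word of AP-1 factors, in capitals.
Alpha constant intron: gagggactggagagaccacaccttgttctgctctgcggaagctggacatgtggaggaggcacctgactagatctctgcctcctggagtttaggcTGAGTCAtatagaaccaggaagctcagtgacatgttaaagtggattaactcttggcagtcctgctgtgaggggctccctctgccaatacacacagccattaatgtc

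The beta subcluster was the longest of the 4 parts of the cluster in which no list had a region, beside the alpha variable exons (183 kb), the gap between alpha and beta and the gamma constant exons (21.3 kb). From PCDHB1 to the end of PCDHB15, over 198 kb and 16 genes, no region of any list was called, nor was any in the 39.0 kb between the alpha and beta genes. PCDHB7 was the member farthest from Abcam (148 kb) and CST (147 kb), and PCDHB1 the farthest from H3K4me3 (268 kb). PCDHB15, at the downstream end, lay 75 kb from Abcam, 74.5 kb from CST and 74.3 kb from H3K4me3, all of them regions at TAF7.

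TAF7, which encodes a subunit of the general transcription factor TFIID, and SLC25A2, a mitochondrial carrier gene, lie between the beta and gamma genes. The TAF7 promoter carried regions of all 3 lists, from 141320369 to 141321535 with Abcam, from 141319876 to 141321450 with CST and from 141319668 to 141321599 with H3K4me3. SLC25A2 had none. The H3K4me3 region of TAF7 measured 1932 bp, close to the 1951 bp at PCDHGC3. These were the only H3K4me3 regions inside the cluster.

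In the gamma subcluster, the 19 genes of the A and B types, from PCDHGA1 to PCDHGA12, had no region at the promoter or over the first exon. PCDHGA1 was nearest to the regions of TAF7, at 8.98 kb from Abcam, 9.06 kb from CST and 8.91 kb from H3K4me3. Distances grew along the row to 76.4 kb from Abcam at PCDHGB5 and fell again toward PCDHGC3. For CST, which was not called at PCDHGC3, they grew further, to 96.2 kb at PCDHGB7. No region was called over the gamma constant exons.

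**Figure D3:**
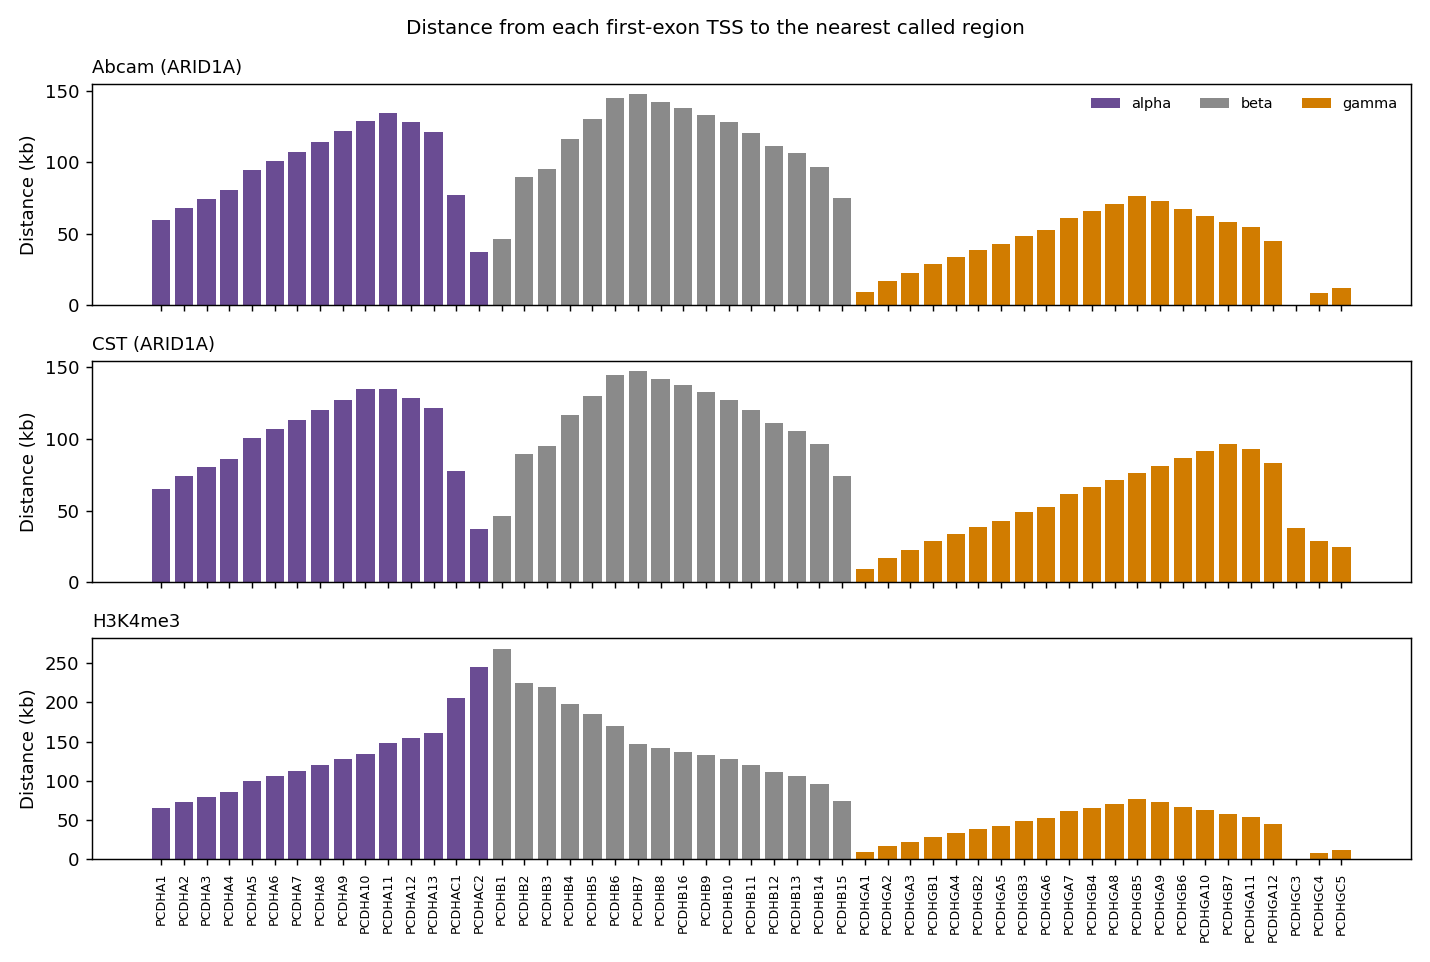
Distance in kb from each member's first-exon TSS to the nearest region of each list, in chromosomal order and colored by subcluster, with 1 bar per gene and a separate scale for each list. PCDHGC3 is at 0 for Abcam and H3K4me3, and the largest distances are at PCDHB7 (148 kb for Abcam) and PCDHB1 (268 kb for H3K4me3).

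Over all members, the median distance to the nearest region was 75 kb for Abcam, 86.6 kb for CST and 85.9 kb for H3K4me3. For all protein-coding genes these medians were 5.43 kb, 9.39 kb and 0 kb. The 12 non-clustered protocadherin genes had medians of 154 kb, 211 kb and 465 kb. Those of the 23 cadherin genes were 58.6 kb, 58.3 kb and 272 kb. Medians of this size were thus not particular to the cluster. More than 50 kb separated 39 of 53 members from Abcam, 40 from CST and 41 from H3K4me3, against 23%, 26.1% and 31.6% of all genes. Neighbouring members share the regions from which these distances were measured and are not independent.

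Members without a region lay in 4 uncalled stretches, of which 3 were long and held many genes. Between the last region before PCDHA1 and the pair in the alpha constant intron, 277 kb with 15 member TSSs held no region of any list. The next stretch, of 314 kb, held all 16 beta genes and 2 other protein-coding TSSs, and the third, of 154 kb, held 19 gamma genes. Of 42226 such stretches between regions of any list, leaving out those with assembly gaps, the median was 18.2 kb, and 96.1%, 96.7% and 92.3% were shorter than these. The fourth, between PCDHGC3 and the first downstream region, measured 36.1 kb and held PCDHGC4 and PCDHGC5, with 66.4% of stretches shorter. Ranked by the number of protein-coding TSSs inside, 12, 9 and 7 stretches of the genome held more than the 3 long ones, and 597 held more than the fourth. The cluster had 72.9 member TSSs per Mb, against 6.86 protein-coding TSSs per Mb over the genome.

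By length, Abcam regions covered 0.536% of the cluster, CST regions 0.427% and H3K4me3 regions 0.534%. Over all chromosomes the covered shares were 2.18%, 1.84% and 1.10%. Per Mb the cluster had 4.13 Abcam, 2.75 CST and 2.75 H3K4me3 regions, against 12.9, 11.3 and 3.35 over all chromosomes and 12.4, 10.7 and 2.44 over chromosome 5. For H3K4me3 the number per Mb was thus near that of the chromosome, with 1 of its 2 regions at TAF7.

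Abcam and CST covered more of each flank than of the cluster, whereas H3K4me3 did so upstream only. Downstream, Abcam covered 5.45%, CST 3.82% and H3K4me3 0%. The upstream regions were not next to the cluster, since the nearest lay 59.4 kb before PCDHA1. In the 100 kb upstream of PCDHA1, Abcam covered 6.82%, CST 5.28% and H3K4me3 11.6%, with 4, 3 and 4 regions. The histidyl-tRNA synthetase genes HARS1 and HARS2, a head-to-head pair, shared a CST region of 895 bp inside an H3K4me3 region of 3264 bp, without Abcam. ZMAT2, which encodes a zinc finger protein of the spliceosome, had an Abcam region of 1171 bp inside an H3K4me3 region of 2719 bp, without CST.

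Nearest to the alpha genes on this side lie the vault RNA genes, which encode short noncoding RNAs found in the vault particle (these genes were picked out after their values were seen). VTRNA1-1 had regions of all 3 lists, with Abcam over 1581 bp, CST over 1804 bp and H3K4me3 over 1949 bp. VTRNA1-2 had wider ones, with Abcam over 2914 bp (140718328 to 140721241), CST over 2576 bp and H3K4me3 over 3632 bp. VTRNA1-3 had an Abcam region of 1157 bp alone (140725593 to 140726749), and this was the last region before PCDHA1. A lncRNA gene that is annotated over all 3 vault RNA genes also overlapped these regions.

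In the 100 kb downstream of the gamma genes, Abcam and CST each had 3 regions, in 3 overlapping pairs, and H3K4me3 had none. The first pair (Abcam 141513469 to 141515760, CST 141514009 to 141515121) began 491 bp past the last gamma exon and reached into the last exon of DIAPH1, which encodes a formin that assembles actin and runs toward the cluster on the minus strand. The next pair (Abcam 141520459 to 141522305, CST 141520665 to 141522126) and the third (Abcam 141603774 to 141605087, CST 141603817 to 141605059) lay in introns of DIAPH1. The promoter of DIAPH1 itself lies just beyond the 100 kb and had all 3 lists. The central 200 bases shared by the second pair (chr5:141521296-141521495, plus strand, hg38) are shown beside those of the alpha intron because they hold 2 matches to TGANTCA.
DIAPH1 intron: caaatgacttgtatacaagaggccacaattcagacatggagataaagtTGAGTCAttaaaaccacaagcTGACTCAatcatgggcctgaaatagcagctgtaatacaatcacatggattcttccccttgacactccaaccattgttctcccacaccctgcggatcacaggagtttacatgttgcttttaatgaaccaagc

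Over the cluster and both flanks, 7 of 10 Abcam regions overlapped a CST region, against 76.3% of all Abcam regions. In the other direction, 7 of 8 CST regions overlapped an Abcam region. The matching share over all CST regions was not computed. TGANTCA, searched on both strands in the central 200 bases, was present in 6 of the 10 Abcam and 4 of the 8 CST regions of the locus, against 19.3% and 19.4% of all regions of these lists. The Abcam regions with it lay at the 3 vault RNA genes, in the alpha constant intron and in the 2 DIAPH1 introns. Those at the promoters of ZMAT2, TAF7 and PCDHGC3 lacked it in these central bases. So did the region that reached the last exon of DIAPH1, which was not at a promoter. None of the 6 H3K4me3 regions had it there (2.52% of all). Outside the central bases, the word was present in the Abcam region of PCDHGC3 and the CST regions of TAF7 and VTRNA1-2. It was also present there in all H3K4me3 regions but that of ZMAT2. Shares over whole regions of the lists were not computed. The CTCF and REST words were in the central 200 bases of no region of the locus, whatever the list, against 3.82% and 0.00533% of all Abcam regions.

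The authors removed reads that did not map uniquely, and family members resemble one another, so the sequence was checked for repeats. Words of 75 bases were counted as repeated when they occurred again anywhere on chromosomes 1 to 22, X or Y, on either strand and without mismatch. In the promoter windows of 1 kb on either side, 31 of 53 members had no repeated word, and 30 of these had no region, PCDHGC3 being the other. The highest shares were 33.2% at PCDHB8 and PCDHB13, 23.4% at PCDHA9, 22.7% at PCDHA7 and 21.9% at PCDHGB4 and PCDHGB5, so that at least 66.8% of the words in every member's window were unique. By subcluster the medians were 2.65% for alpha and 0% for beta and gamma. Of the 829 other promoters of chromosome 5, 80.9% had no repeated word. In the first exons the median over the members was 6.26%, with 36% at PCDHB8, and the share was 0% at 11 members: the C-type genes PCDHAC1, PCDHAC2, PCDHGC3, PCDHGC4 and PCDHGC5 and the gamma genes PCDHGA4, PCDHGA5, PCDHGA7, PCDHGA9, PCDHGA11 and PCDHGB3. Copies with mismatches were not counted.

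The member promoters were poor in G and C. The median GC content of these windows was 42.7%, against 56.0% over all protein-coding genes, and the median CpG ratio was 0.60 against 0.64. The alpha genes combined a low GC content (median 41.0%) with a high CpG ratio (0.71), the beta genes had 41.8% and 0.44, and the gamma genes 43.8% and 0.60. With limits chosen after the values were seen, 4 members had both a GC content of at least 50% and a CpG ratio of at least 0.6: PCDHAC1 (56.6%, 0.79), PCDHAC2 (57.2%, 0.66), PCDHGC3 (50.1%, 0.76) and PCDHGC4 (52.4%, 0.61), all of the C type. The remaining C-type gene, PCDHGC5, had 52.0% and a CpG ratio of 0.22, the lowest of the family. Of these 4 members 1 had H3K4me3 and Abcam. Over all 10230 genes within the same limits, 74.2% had H3K4me3, 59.7% Abcam and 48.7% both ARID1A antibodies. Those genes were not matched to the 4 members, whose GC contents of 50.1% to 57.2% lie near the lower limit. Outside these limits, 0 of 49 members had a region of any list. Over all 9740 genes there, 27.3% had H3K4me3, 26.2% Abcam and 20.5% both ARID1A antibodies. The share of these genes with a region of any list was not computed.

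**Figure D4:**
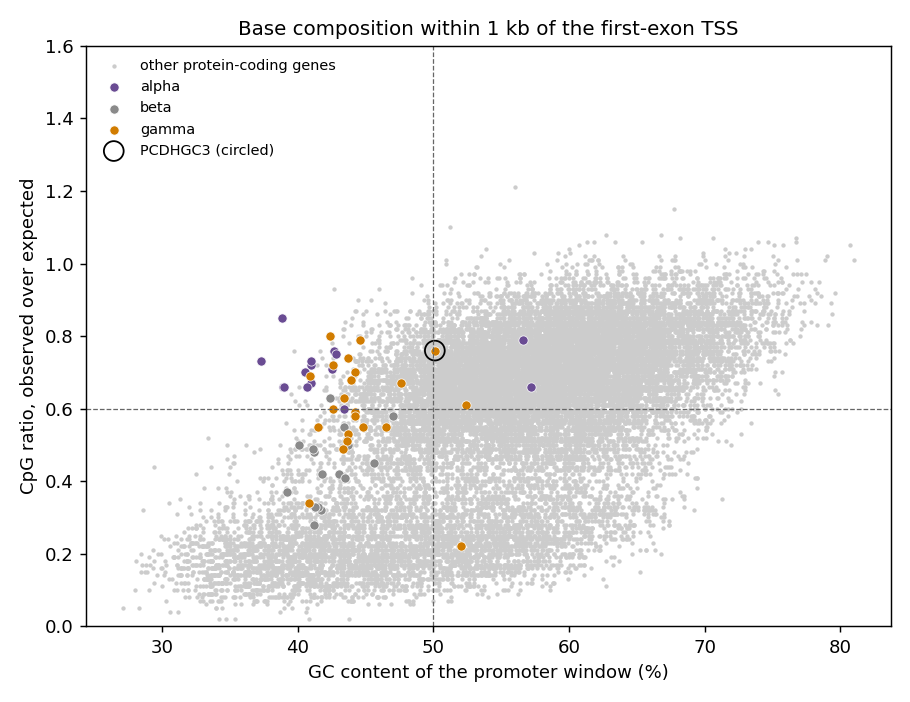
GC content (percent) against CpG ratio (observed over expected) within 1 kb of the first-exon TSS, with 1 point per gene, members colored by subcluster, other protein-coding genes in grey and dashed lines at 50% and 0.6. PCDHGC3 (50.1%, 0.76) is circled and stands with PCDHAC1, PCDHAC2 and PCDHGC4 in the upper right part, while 49 members lie outside it.

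Other members of the cadherin superfamily gave a comparison outside the cluster. Of 12 non-clustered protocadherin genes, 3 had H3K4me3 at the promoter (25%): PCDH1, which lies further along chromosome 5, and PCDH9 had both ARID1A antibodies as well, and PCDH7 had Abcam alone. PCDH1 had an Abcam region of 2328 bp, a CST region of 1603 bp and an H3K4me3 region of 6452 bp. The other 9, among them PCDH10, PCDH17, PCDH18 and PCDH19, had no region. Of 23 cadherin genes, 4 had H3K4me3 (17.4%) and 4 had both ARID1A antibodies (17.4%). CDH1, CDH3 and CDH24 had all 3 lists, CDH2 (N-cadherin) had H3K4me3 alone, CDH15 had both ARID1A antibodies without H3K4me3, and CDH17 had Abcam alone.

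Genes for known regulators and partners of clustered protocadherins carried regions at most promoters. Of 20 such genes, 18 had H3K4me3, 17 Abcam, 14 CST and 13 both ARID1A antibodies (65.0%). All 3 lists were present at CTCF, at the cohesin genes RAD21, SMC3 and STAG1, at NIPBL, which loads cohesin, at the silencing factors SMCHD1, SETDB1 and DNMT3B, and at ADAM10, whose product cuts protocadherins at the membrane. The widest of these Abcam regions were at NIPBL (4145 bp), SMCHD1 (3708 bp) and CTCF (3579 bp). STAG2, WAPL, which releases cohesin, and REST had Abcam and H3K4me3 without CST, SMC1A had CST and H3K4me3 without Abcam, RET, a receptor tyrosine kinase, had Abcam alone, and WIZ had no region.

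**Figure D5:**
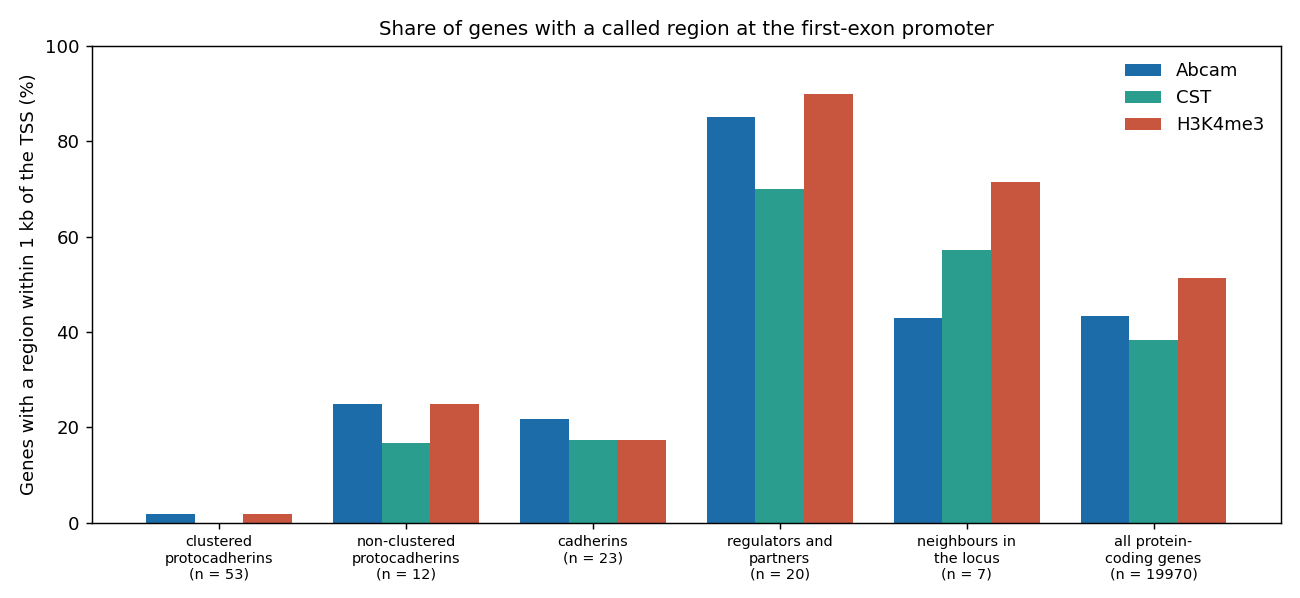
Percent of genes with a region of each list within 1 kb of the first-exon TSS, for the 53 clustered protocadherins, related gene lists, the 7 neighbours in the locus and all 19970 protein-coding genes, with 1 bar per list and no error bars, since each bar counts every gene of its list. Clustered protocadherins stand at 1.89% for Abcam and H3K4me3 and at 0% for CST, against 43.4%, 51.3% and 38.4% of all genes.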

How the data were processed

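CUT&RUN regions of 3 of the 4 groups were used. Adapters were removed by the authors (cutadapt) before alignment to hg38 (bwa-mem2). They dropped duplicates (Picard) and reads without a unique position (samtools), and scaled replicates by E. coli spike-in reads. Peaks were called with SEACR, only a small top fraction of them was kept, and replicate peaks were merged with bedtools. Libraries were prepared in batches, with samples randomized between them. Versions are not given in the sources used here. The methods name the relaxed mode, whereas the deposited lists are labelled stringent. The lists hold chromosome, start and end without signal, so depth is unknown, and a site just under the threshold is missing. Regions on other sequences (152 Abcam, 159 CST, 14 H3K4me3) were left out.

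The first-exon TSS was that of the canonical GENCODE 44 transcript. A promoter was 1 kb on either side, and 1 shared bp counted as overlap. Named were members with a region, ends of subclusters, neighbours, regions of the locus and related genes with all lists or none. Further members with extreme distances, repeats or base content were named after their values were seen. Members and lists were chosen with earlier results of these data known. Repeated words were counted over the hg38 sequence. Overlap, distance and word functions were tested on simulated data. Python 3.11.15, NumPy 2.4.6 and pandas 2.3.3 were used. A planned comparison of protein ends was not made. Alternatives were other windows, TSSs, widths, joining and overlap rules.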

Additional observations from a re-analysis of the deposited data

How the results depend on the processing

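PCDHGC3 was the only member with a region, for Abcam and for H3K4me3, and no member had CST or both antibodies, with windows of 500 bp or 3 kb, any protein-coding TSS, the first exon in place of the window, regions of at least 200 bp, joined regions or the midpoint rule. When regions narrower than their list's median were dropped, no member was left for Abcam (0) or H3K4me3 (0), since both regions of PCDHGC3 are narrow; the cluster then held 1 Abcam and 0 H3K4me3 regions, and the median distances rose to 126 kb for Abcam and 234 kb for H3K4me3. The shares over all genes fell with this limit as well, from 43.4% to 28.6% for Abcam and from 51.3% to 27.5% for H3K4me3. Among the other settings these shares were lowest with the midpoint rule, at 40.2% for Abcam and 46.3% for H3K4me3. In flanks of 50 kb there were 2 Abcam, 2 CST and 0 H3K4me3 regions, against 7, 6 and 4 in 100 kb. With words of 36 bases, 15 members in place of 31 had no repeated word, and the median share was 1.98% in place of 0%. Of the 829 other promoters of chromosome 5, 49.1% had no repeated word of this length, with a median share of 0.0509%. The other 48 of 59 values stayed within 1.5 times the reported ones. Some of these could not change, since a count of 0 stays 0 when windows narrow or regions are dropped. The limit of 200 bp left the shares over all genes unchanged. No paired analysis was possible because each list is merged over the replicates, and no replicate could be left out.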
